A study of Mus musculus with 2 samples.

Results

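The Mir106a-363 cluster is a group of 6 microRNA genes on mouse chromosome X: Mir106a, Mir18b, Mir20b, Mir19b-2, Mir92-2 and Mir363. These were all the rows whose gene identifier carries 1 of those symbols in the GENCODE annotation, 6 of 1973 microRNA genes in the tables. They were chosen by their measured values, a low level and a shared higher value in replicate 2, seen in an earlier look at the same tables. Therefore their levels and ratios between libraries are given here as a description and were not tested. The data were microRNA sequencing of whole limbs from B6NCrl mouse embryos at embryonic day 14.5, in 1 group of 2 samples called biological replicates 1 and 2. There was no treatment, no genetic change and no second condition. Each sample came from 4 limbs. Its labels name a single pup but give the sex as pooled male and female, and both samples carry the same donor label with different collection days, so how many embryos stand behind a sample is not clear. The spread between the 2 samples may therefore be partly technical.

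MicroRNAs are short RNAs that are cut from hairpins and guide repression of mRNAs that pair with their seed, the bases from position 2 to position 8. The Mir106a-363 cluster is a paralog of the Mir17-92 cluster on chromosome 14, which promotes proliferation and survival and whose loss in people and mice disturbs digit formation. A further paralog, the Mir106b-25 cluster, lies in an intron of the replication gene Mcm7 on chromosome 5. Mice that lack the X-linked cluster alone were reported without an evident defect. Limb tissue at this age holds cartilage, muscle, skin, vessels and nerve, and fewer cells of a type and less RNA per cell cannot be told apart in such bulk samples.

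Each hairpin is shown because the 6 genes differ in how far their reads can be told from those of a paralog. The sequences are RefSeq's for GRCm38.p6, 5′ to 3′ on the minus strand, with the annotated mature arms in capitals, and they are listed in the order of the transcript. All 6 members were found in the RefSeq table, with 11 mature arms.
Mir106a: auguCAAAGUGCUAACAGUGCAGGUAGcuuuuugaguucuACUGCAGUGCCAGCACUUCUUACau
Mir18b: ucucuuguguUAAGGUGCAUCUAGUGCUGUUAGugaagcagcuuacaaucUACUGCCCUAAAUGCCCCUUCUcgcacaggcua
Mir20b: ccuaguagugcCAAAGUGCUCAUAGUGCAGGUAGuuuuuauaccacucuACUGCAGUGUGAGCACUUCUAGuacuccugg
Mir19b-2: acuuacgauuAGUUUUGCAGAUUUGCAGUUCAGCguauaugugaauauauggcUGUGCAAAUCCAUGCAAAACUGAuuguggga
Mir92-2: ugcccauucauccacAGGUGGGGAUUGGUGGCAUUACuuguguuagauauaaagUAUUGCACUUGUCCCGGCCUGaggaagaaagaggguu
Mir363: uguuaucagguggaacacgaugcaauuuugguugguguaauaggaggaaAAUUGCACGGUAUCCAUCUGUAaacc

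The 6 hairpins lie within 875 bases, at chrX:52741693-52742567 in GRCm38 (mm10). Mir106a (ENSMUSG00000065456.1, 52742503 to 52742567) comes first in the transcript, followed by Mir18b (ENSMUSG00000077111.2, 52742331 to 52742413) after a gap of 89 bases. Mir20b (ENSMUSG00000076041.1, 52742113 to 52742192) follows after 138 bases and Mir19b-2 (ENSMUSG00000065473.1, 52741983 to 52742066) after 46 bases. Mir92-2 (ENSMUSG00000065613.1, 52741838 to 52741928) and Mir363 (ENSMUSG00000070106.1, 52741693 to 52741767) follow after 54 and 70 bases. The long noncoding gene Kis2 runs on the same strand from 52742563 to 52744960 in GENCODE M21. Its last exon overlaps the Mir106a hairpin by 5 bases, and the other 5 hairpins lie outside Kis2, past its annotated 3′ end.

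The sequence around the RefSeq start of Kis2, the annotated transcript that leads into the cluster, is shown too. Whether the members are transcribed from this start in the limb was not tested. The window of 300 bases spans chrX:52744544-52744843 on the minus strand of GRCm38.p6. GENCODE places the 5′ end of Kis2 further upstream, at 52744960, so the window lies inside the gene in that annotation.
Kis2 promoter: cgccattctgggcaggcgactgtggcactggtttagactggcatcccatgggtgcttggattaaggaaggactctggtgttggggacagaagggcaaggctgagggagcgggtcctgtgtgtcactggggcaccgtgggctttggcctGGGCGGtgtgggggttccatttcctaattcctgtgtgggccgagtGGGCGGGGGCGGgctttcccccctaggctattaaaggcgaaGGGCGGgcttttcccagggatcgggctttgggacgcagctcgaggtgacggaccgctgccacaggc
Capitals mark 4 matches to the GC box GGGCGG, 2 of them side by side, all on the transcript strand. Of 32851 promoters of this length, 35.7% held this motif at least once on either strand. The letters CACGTG (E-box, in 7.15% of promoters), TTTCGCGC (an E2F site, 0.323%), TATAAA (13.6%) and CCAAT (37.4%) were searched on both strands and are not in this window.

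In each member, the mature arm usually held to be the guide carries 1 of 4 seeds, all shared with genes of the paralogous clusters. This arm is shown for each member and its paralogs, with the seed in capitals, to show which bases separate them. The AAAGUGC family, which includes the miR-17 guides, holds 2 members.
miR-106a-5p: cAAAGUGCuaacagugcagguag
miR-20b-5p: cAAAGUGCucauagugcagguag
miR-17-5p: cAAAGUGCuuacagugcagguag
miR-20a-5p: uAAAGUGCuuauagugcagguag
miR-93-5p: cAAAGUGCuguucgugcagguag
miR-106b-5p: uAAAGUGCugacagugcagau
Counted from 1 at the 5′ end, with the paralog's base first and the member's base last, miR-106a-5p differs from miR-17-5p by U10A alone, and miR-20b-5p differs from miR-20a-5p by U1C and U10C. How many reads of the paralog were placed at a member through a misread base was not tested.

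The AAGGUGC family holds Mir18b and its chromosome 14 counterpart Mir18, which differ by A18U and A20U.
miR-18b-5p: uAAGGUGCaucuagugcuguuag
miR-18a-5p: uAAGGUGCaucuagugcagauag
The GUGCAAA family, that of miR-19, holds Mir19b-2. Its guide is identical to that of Mir19b-1.
miR-19b-3p: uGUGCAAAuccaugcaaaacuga
miR-19a-3p: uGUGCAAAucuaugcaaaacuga
The AUUGCAC family, that of miR-25 and miR-92, holds Mir92-2 and Mir363. The guide of Mir92-2 is identical to that of Mir92-1.
miR-92a-3p: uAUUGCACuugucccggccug
miR-363-3p: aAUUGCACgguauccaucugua
miR-25-3p: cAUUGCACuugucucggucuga
Reads with several alignments were given to no gene, so reads of miR-19b-3p and miR-92a-3p that match both copies were not counted at either. The other arms do differ between the copies, and are shown because reads of them can be assigned.
miR-19b-2-5p: aGUUUUGCagauuugcaguucagc
miR-19b-1-5p: aGUUUUGCagguuugcauccagc
miR-92a-2-5p: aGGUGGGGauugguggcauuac
miR-92a-1-5p: aGGUUGGGauuugucgcaaugcu
The tables give 1 count per gene, so which arm a read came from is not recorded.

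The libraries held 4608816 (replicate 1) and 4144385 (replicate 2) reads on the own strand of a microRNA gene. Levels are in CPM, a gene's counts divided by the library's sum of such reads and multiplied by 1000000, and each read stands for a whole small RNA, so no division by length was made. A single count is worth 0.217 CPM in replicate 1 and 0.241 CPM in replicate 2. Reads with several alignments made up 31.8% and 32.6% of all reads, and unmapped reads 12.8% and 13.7%. Over the 407 genes that had 10 counts or more in sum, the libraries differed by a chi-square of 53.7 per degree of freedom. It takes reads as independent and sets them against counting noise alone, so it shows only that the tables are not 1 library deposited again, not that the samples are separate. Limb microRNAs were high as the label implies, with Mir140 of cartilage at 57289 ± 2418 CPM (SD, n = 2) and Mir196b of the HoxA cluster at 51975 ± 3475 CPM, while the liver microRNA Mir122 was at 9.90 ± 5.11 CPM. No member had a read on the opposite strand in either library.

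The cluster as a whole was a minor part of the limb's microRNA reads. Its 6 genes summed to 1094 counts or 237 CPM in replicate 1 (95% exact Poisson interval 224 to 252) and to 1368 counts or 330.1 CPM in replicate 2 (313 to 348). The mean was 284 ± 65.6 CPM (SD, n = 2), which is 0.0284% of the counts. All 6 genes had at least 10 counts in both libraries, as 333 of the 1973 genes did. Even summed, the cluster was below 148 single genes. Nearest to it in level were Mir485 (280 ± 25.5 CPM), Mir155 (262 ± 29.8 CPM) and Mir24-2 (261 ± 4.39 CPM) on the lower side and Mir148b (318 ± 13.5 CPM), Mir152 (329 ± 27.8 CPM) and Mir598 (334 ± 3.23 CPM) on the upper side. The intervals here and below cover counting error only, since no molecular identifiers were recorded.

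Mir106a, Mir363 and Mir20b gave 75.9% ± 1.21 of the cluster's reads (SD, n = 2). Mir106a, a miR-17 family gene, had 287 counts (62.3 CPM) in replicate 1 and 381 counts (91.9 CPM) in replicate 2, a mean of 77.1 ± 21.0 CPM (SD, n = 2), and ranked 206 among all genes. Mir363, the miR-92 family gene at the end of the transcript, had 287 counts (62.3 CPM) and 362 counts (87.3 CPM), a mean of 74.8 ± 17.7 CPM. Mir20b, the other miR-17 family gene, had 247 counts (53.6 CPM) and 307 counts (74.1 CPM), a mean of 63.8 ± 14.5 CPM. These 3 genes differed from each other by less than the spread between the libraries.

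Mir92-2 had 203 counts (44.0 CPM) in replicate 1 and 224 counts (54.0 CPM) in replicate 2, a mean of 49.0 ± 7.07 CPM. Its higher value just passed the lower value of Mir20b, so these neighbours overlapped. Mir18b, of the miR-18 family, had 50 counts (10.8 CPM) and 72 counts (17.4 CPM), a mean of 14.1 ± 4.61 CPM. Mir19b-2 was the lowest, with 20 counts (4.34 CPM) and 22 counts (5.31 CPM), a mean of 4.82 ± 0.685 CPM and rank 306. Mir18b and Mir19b-2 overlapped neither each other nor any other member. The order of the 6 genes was the same in both libraries, apart from the tie of Mir106a and Mir363 in replicate 1. For Mir92-2 and Mir19b-2 the counts leave out reads that match both copies, because their guides have identical copies on chromosome 14.

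**Figure D1:**
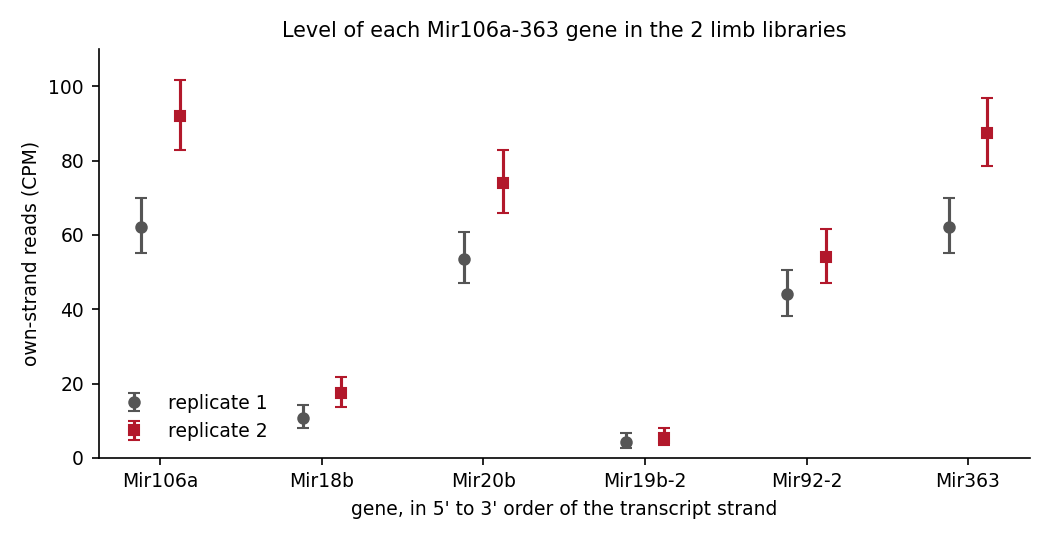
Level of each Mir106a-363 gene (y axis, CPM of own-strand reads) in replicate 1 (grey circles) and replicate 2 (red squares), with 95% exact Poisson intervals, in transcript order (x axis). Each gene is higher in replicate 2, by which the members were chosen, and Mir19b-2 stays near 5 CPM.

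Position in the transcript and level did not follow each other. The first and last hairpins, Mir106a and Mir363, were the highest, and the low Mir18b and Mir19b-2 lay between higher genes. The highest gene was 16.0 times the lowest, Mir19b-2, whose count leaves out reads that match both copies of its guide. How evenly different microRNAs yield reads was not measured, so these are ratios of reads.

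The make-up of the cluster is given per library as a description, since the members were chosen for a shared shift. Mir106a gave 26.2% of the cluster's reads in replicate 1 (95% exact binomial interval 23.6 to 28.9) and 27.9% in replicate 2 (25.5 to 30.3). Mir363 gave 26.2% and 26.5%, and Mir20b 22.6% and 22.4%. Together these 3 genes gave 75.0% (72.4 to 77.6) and 76.8% (74.4 to 79.0). Mir92-2 gave 18.6% (16.3 to 21.0) and 16.4% (14.5 to 18.4), Mir18b stood at 4.57% and 5.26%, and Mir19b-2 at 1.83% and 1.61%. For each of the 6 genes the intervals of the libraries overlapped.

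The paralogous clusters were far higher. The 6 genes of the Mir17-92 cluster summed to 32110 CPM in replicate 1 and 34221 CPM in replicate 2, a mean of 33166 ± 1492 CPM (SD, n = 2) and 117 times the X-linked sum. The 3 genes of the Mir106b-25 cluster summed to 14002 and 15524 CPM, a mean of 14763 ± 1076 CPM and 52.0 times the X-linked sum. Of all reads of the 3 clusters, the X-linked genes gave 0.512% in replicate 1 (95% exact binomial interval 0.482 to 0.543) and 0.659% in replicate 2 (0.625 to 0.695). The X-linked genes were chosen for a higher value in replicate 2, so nothing is read from this difference.

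The 5 members that have a counterpart on chromosome 14 were lower than it, by amounts that ranged widely. Mir363 has none and was not compared. Mir17, at 18447 and 19456 CPM in replicates 1 and 2, had 296 and 212 times the reads of Mir106a. Mir18, at 4824 and 5011 CPM, had 445 and 288 times those of Mir18b, and Mir20a, at 7100 and 7751 CPM, had 132 and 105 times those of Mir20b. Mir92-1, at 1679 and 1927 CPM, had 38.1 and 35.7 times the reads of Mir92-2. Mir19b-1, at 13.7 and 16.2 CPM, had 3.15 and 3.05 times those of Mir19b-2. The last 2 pairs are those with an identical guide, in which both counts lack the reads that match both copies. Mir19a, whose guide is its own, was low too, at 47.5 and 59.4 CPM.

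**Figure D2:**
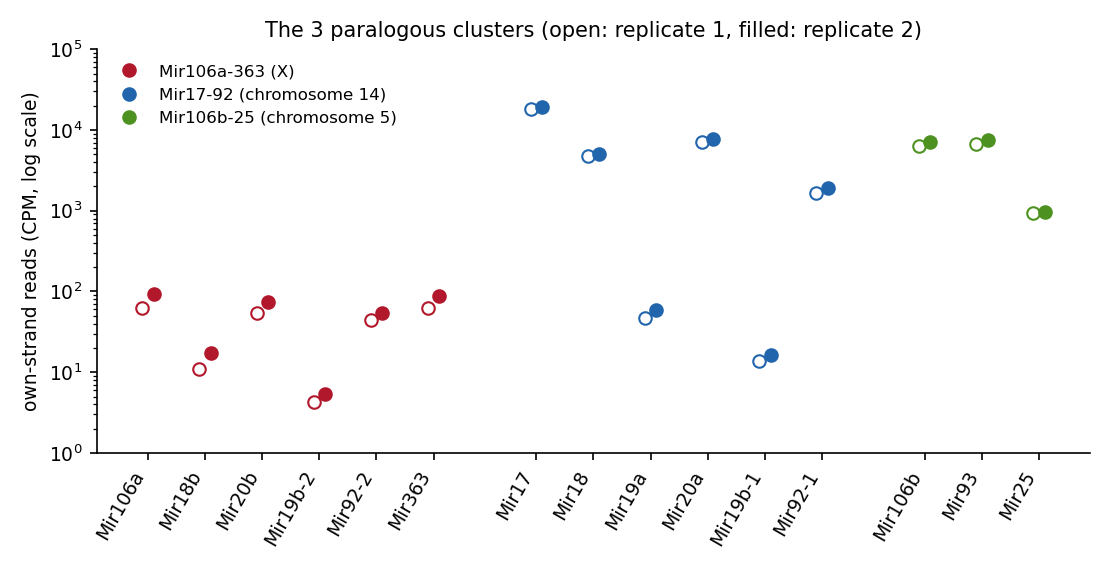
Level (y axis, CPM, log scale) of the 15 genes of the 3 paralogous clusters (x axis), with replicate 1 as open and replicate 2 as filled circles. All X-linked genes lie below 100 CPM, whereas Mir17 reaches 19456 CPM and only the miR-19 genes of chromosome 14 fall into the X-linked range.

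Grouped by the seed of their guides, the members gave a small part of each family's counts. These are counts of whole genes, so a family's reads here are all reads of its genes, from either arm. Reads of miR-19b-3p and miR-92a-3p that match both copies are missing from them. The shares of Mir19b-2 and Mir92-2 are therefore not their shares of the guide itself. Genes with the AAAGUGC seed summed to 40330 ± 2278 CPM over 7 genes, of which Mir106a and Mir20b gave 0.299% in replicate 1 and 0.396% in replicate 2. Mir6383, also X-linked and of this seed, had no count. Mir18b gave 0.224% and 0.346% of the AAGGUGC reads. Mir363 and Mir92-2 gave 3.52% and 4.25% of the AUUGCAC reads, a family of 7 genes at 3172 ± 219 CPM that also includes Mir25 (951 ± 8.20 CPM), Mir32 (221 ± 0.901 CPM), Mir92b (73.3 ± 9.70 CPM) and Mir367, which had no count. Mir363 was thus at about the level of Mir92b. Mir19b-2 gave 6.62% and 6.57% of the GUGCAAA reads, a family that summed to 73.2 ± 10.8 CPM.

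All 6 members were higher in replicate 2, by which they had been chosen. Over these 407 genes, 57% were higher in replicate 2 and the median log2 ratio (replicate 2 over replicate 1, with 0.5 added to each count) was 0.04. Other scalings moved this background, to 50.1% with TMM factors and 42.8% with DESeq2 size factors, and 6 of 6 members were higher under each. The summed cluster was 1.39-fold higher, a log2 ratio of 0.48 (95% counting interval 0.36 to 0.59), and the median of the members was 0.48. Without Mir92-2 and Mir19b-2, whose guides have identical copies, the median was 0.52.

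The members' ratios ranged from 0.29 to 0.67. Mir18b had the highest log2 ratio, 0.67 (0.14 to 1.23), on 122 reads in all. Mir106a followed with 0.56 (0.34 to 0.79), Mir363 with 0.49 (0.26 to 0.72) and Mir20b with 0.47 (0.22 to 0.71). Mir92-2 was at 0.29 (0.01 to 0.58) and Mir19b-2 at 0.29 (-0.65 to 1.24), the latter on 42 reads. Whether the members differ among themselves in this ratio was not tested, since they were chosen for a shared one.

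**Figure D3:**
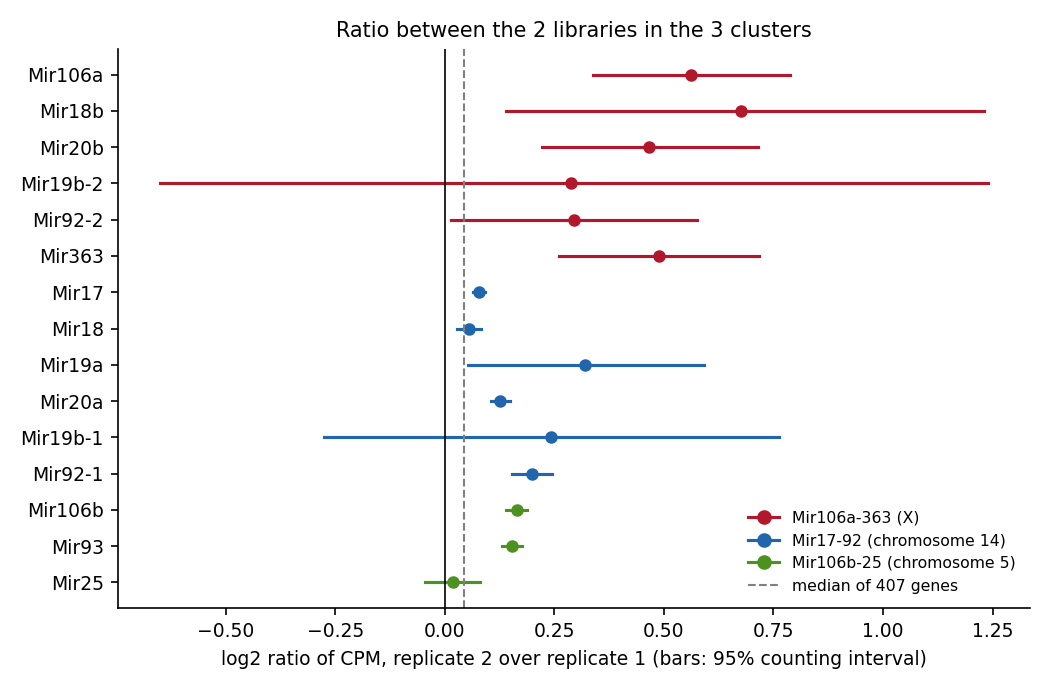
Log2 ratio of CPM, replicate 2 over replicate 1 (x axis), for the 15 genes of the 3 clusters (y axis), with 95% counting intervals as bars and the median of 407 genes as a dashed line. The X-linked genes lie from 0.29 to 0.67 with wide bars, and the abundant paralogs lie between 0.02 and 0.20 with narrow ones.

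The ratios of the members were set beside those of all genes. At least 1.3-fold higher in replicate 2 were 4 of 6 members and 13.5% of the 407 genes, which include the members. At a mean of 1 to 100 CPM, the range that holds all members, 24.4% of 217 genes were at least 1.3-fold higher, 59.4% were higher at all, and the median log2 ratio was 0.09. Of 244 genes with at least 100 counts in both libraries, 3 had a log2 ratio at or above that of the summed cluster, and 2 of the 3 were the members Mir106a and Mir363. The other was Gm23935 on chromosome 16, named after its values were seen, at 25.0 and 37.4 CPM in replicates 1 and 2 (0.58). The limit of 100 counts left out lower genes, the members Mir18b and Mir19b-2 among them. Since the members were picked for this ratio and make up the sum that set the limit, nothing is read from these counts.

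**Figure D4:**
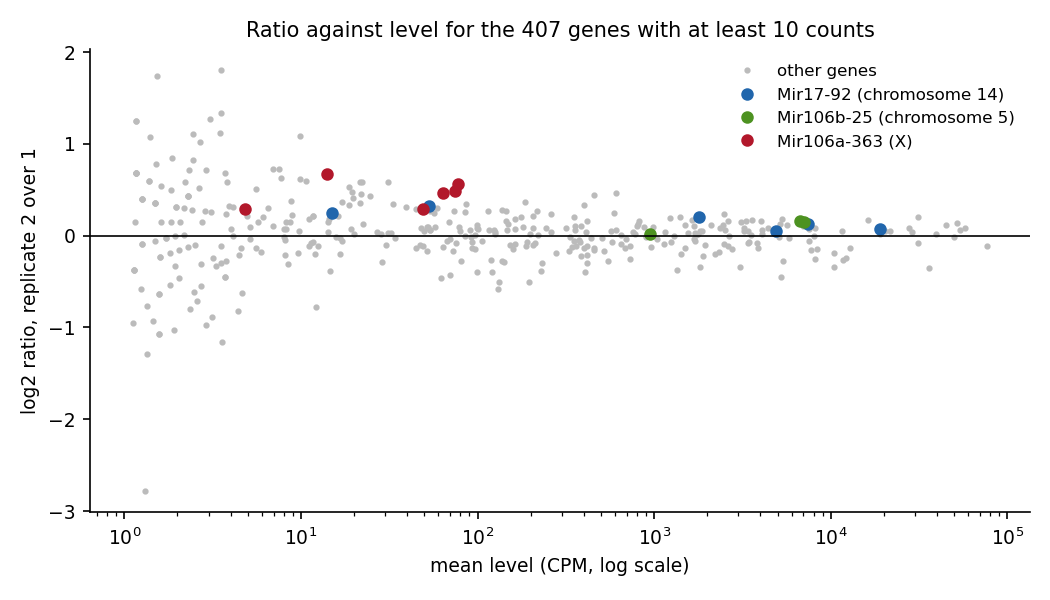
Log2 ratio, replicate 2 over replicate 1 (y axis), against mean level (x axis, CPM, log scale) for 407 genes. The 6 X-linked genes of the cluster (red) lie above 0 between 4.82 and 77.1 CPM, and the spread of all genes widens below 10 CPM.

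The ratios of most paralogs were smaller than those of the members. The Mir17-92 genes were higher in replicate 2 for 6 of 6, with a median log2 ratio of 0.16 and a summed ratio of 0.09 (95% counting interval 0.08 to 0.10). The Mir106b-25 genes were higher for 3 of 3, with a median of 0.15 and a summed ratio of 0.15 (0.13 to 0.16). Mir25 was not higher with TMM or DESeq2 scaling, and Mir18 not with DESeq2 scaling, which left 5 of 6 and 2 of 3 genes higher. Mir17 was at 0.08, Mir20a at 0.13 and Mir93, in Mcm7, at 0.15, while Mir25 was at 0.02 (-0.04 to 0.08). Among the paralogs the highest ratios belonged to the low genes Mir19a, at 0.32 (0.05 to 0.59), and Mir19b-1, at 0.24 (-0.28 to 0.76).

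Pair by pair, the log2 ratio of Mir18b exceeded that of Mir18 by 0.62, that of Mir106a exceeded that of Mir17 by 0.48 and that of Mir20b exceeded that of Mir20a by 0.34. For the pairs with identical guides the differences were 0.10 (Mir92-2 over Mir92-1) and 0.05 (Mir19b-2 over Mir19b-1). As a share of the pair's reads, Mir106a stood at 0.336% (0.299 to 0.378) in replicate 1 and 0.470% (0.424 to 0.520) in replicate 2, with intervals that did not overlap. For Mir18b, at 0.224% (0.167 to 0.296) and 0.346% (0.270 to 0.435), and for Mir20b, at 0.749% (0.659 to 0.848) and 0.947% (0.844 to 1.06), they overlapped. Mir92-2 stood at 2.56% and 2.73% of its pair and Mir19b-2 at 24.1% and 24.7%, also with overlapping intervals. The intervals cover counting error only and the members were chosen for this shift. Nothing is therefore read from whether they overlap.

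Other genes of chromosome X did not share 1 ratio. Of 40 other X-linked genes among the 407, 26 (65%) were higher in replicate 2 and 10 (25%) at least 1.3-fold. Their median log2 ratio was 0.10, and 24 were higher with TMM and 21 with DESeq2 scaling. At a mean of 1 to 100 CPM, only Mir450-1 and Mir741 of these genes were not higher in replicate 2. Those at 10 to 100 CPM were Mir1198 (log2 ratio 0.59), Mir1298 (0.52), Mir325 (0.48), Mir505 (0.29), Mir452 (0.25), Mir450-2 (0.03) and Mir450-1 (-0.17). Whether level has a part in these ratios was not tested. The next counted gene toward higher coordinates is Mir450b, 305 kb away, at 416 CPM in replicate 1 and 356 CPM in replicate 2, a log2 ratio of -0.22 (-0.32 to -0.13). It belongs to the cluster that runs toward higher coordinates up to the growth-related Mir322. The 7 genes of that cluster summed to 66395 ± 1521 CPM with a median log2 ratio of -0.01. Mir322 alone had 189 times the reads of the summed Mir106a-363 cluster. Toward lower coordinates the next was Mir3110, with 3 and 7 counts, too few to place. The sexes of the embryos were given only as pooled, and no part of sex in these ratios was tested.

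**Figure D5:**
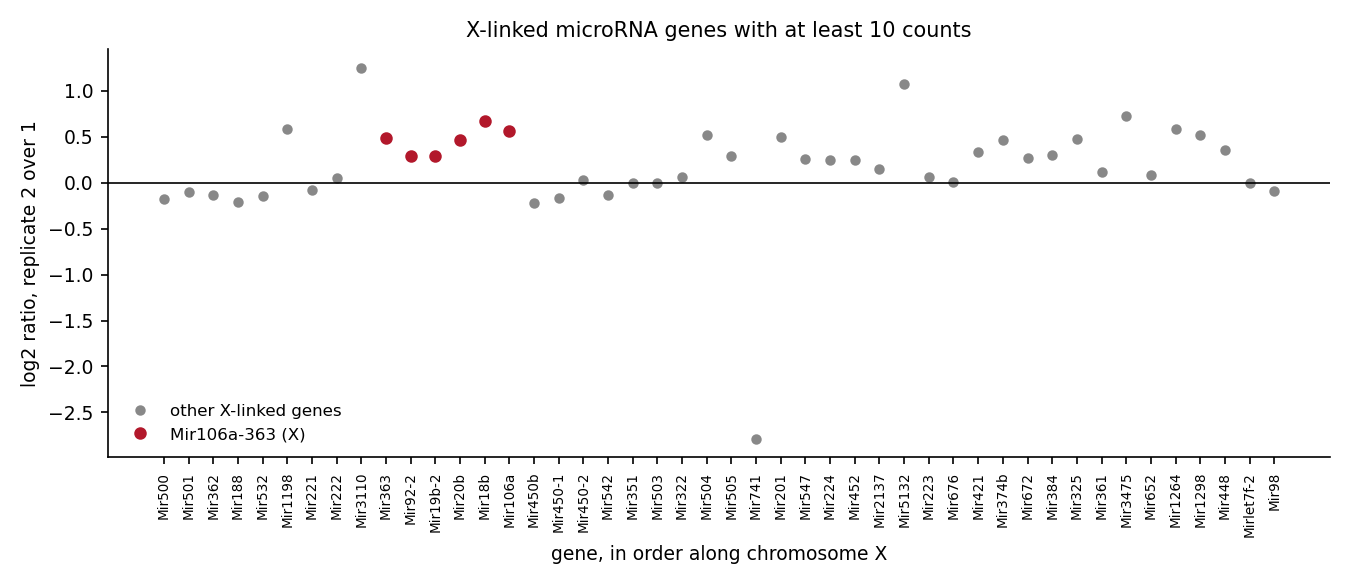
Log2 ratio, replicate 2 over replicate 1 (y axis), of the 46 X-linked genes counted, in chromosome order (x axis). The 6 Mir106a-363 genes (red) lie above 0 beside Mir450b to Mir322, which lie between -0.22 and 0.06.

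Outside the 3 clusters, the genes of 1000 or more summed counts whose log2 ratio was nearest to that of the summed cluster were Mir374b, Mir375 and Mir135b. No member reached 1000 counts, so this rule left out genes counted as sparsely as the members. Among those left out, Mir325, at 16.3 and 22.7 CPM in replicates 1 and 2 (0.48), was nearer than all 3. Likeness was the difference between log2 ratios over 2 libraries, which is a single number per gene. Mir374b, also on chromosome X, was at 507 and 702 CPM in replicates 1 and 2 (0.47). Mir375, a microRNA of endocrine cells, was at 387 and 526 CPM (0.44), and Mir135b was at 161 and 208 CPM (0.37).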

How the data were processed

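Each sample had 1 table of raw read counts per gene, deposited without normalization, and per the read-me texts deposited with them reads had been aligned to mm10 and annotated with GENCODE M4. For the aligner and the counting program: not given in the sources used here. Of 3 count columns without header, the second was taken as own-strand from its values. Reads with several alignments, unmapped reads and reads on no gene stood in 4 tally rows, which were kept out of all totals.

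Symbols and positions came from GENCODE M21 (same build) by gene identifier, with 1894 of 1973 genes matched, and sequences from RefSeq (GRCm38.p6). CPM, log2 ratios (prior count 0.5), exact Poisson, binomial and Clopper-Pearson intervals at 95% were computed with Python 3.11.15, pandas 2.3.3 and scipy 1.17.1, and plots with matplotlib 3.10.9. The interval of a log2 ratio came from the split of a gene's reads between the libraries. The code for ratios and intervals was checked on counts simulated with counting noise alone. Such counts cannot show how well the intervals hold for these libraries. Scaling alternatives used edgeR 4.0.16 and DESeq2 1.42.0 in R 4.3.3. No test was run, because 1 group of 2 samples leaves no contrast and the members were chosen on these values.

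The members, lists and rules were chosen with earlier results of these data known. Named genes were the members, the paralogous clusters, genes of a shared seed with at least 100 counts in total (those of a shared seed without counts, too), the nearest counted genes on chromosome X, 3 genes nearest in ratio and 3 on each side in level. Mir140, Mir196b and Mir122 (tissue), Mir322, the X-linked genes named at 1 to 100 CPM and the 1.3-fold and 1 to 100 CPM limits were added after the data were seen.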

Additional observations from a re-analysis of the deposited data

How the results depend on the processing

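Of 20 alternative values for the cluster's sum, ratio, count and share, 19 stayed at, or within the spread or counting interval of, the reported one, and 6 further values could not leave it by construction. The exception was the summed level with reads of several alignments in the total, 173 CPM. Under that total the level of every member also fell (Mir106a to 46.9 CPM, Mir19b-2 to 2.94 CPM), since only the total grew. The log2 ratio of the summed cluster was 0.43 with TMM factors, 0.40 with DESeq2 size factors, 0.44 with reads of several alignments in the total and 0.48 with either-strand counts, and 6 members were higher in replicate 2 under each. At least 1.3-fold higher were 4 members with TMM scaling, beside 12.3% of the 407 genes, and 4 with DESeq2 scaling, beside 11.1%. Prior counts of 0 and 2 gave a median of 0.48. Left to 1 library, the summed level was 237 or 330.1 CPM and the share in the 3 clusters 0.512% or 0.659%; without genes that have an identical mature copy that share was 0.493%. A ratio between libraries cannot be had with 1 left out. No paired analysis was possible because there is 1 group. Depth limits Mir19b-2 most, with 42 reads in all.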
